A study of Arabidopsis thaliana with 24 samples.

Results

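Cytosolic ribosomal protein genes encode the protein parts of the small (40S) and large (60S) subunits of the ribosomes that translate nuclear messages in the cytosol. They were taken from a list of 53 nuclear loci of Arabidopsis thaliana, and 47 of the 53 had a value in the deposited table of 20777 loci. The other 6 loci, AT3G11940, AT2G37270, AT2G09990, AT5G18380, AT2G18020 and AT4G36130, were not in the table used and are not analysed here. The measured genes lie on all 5 nuclear chromosomes, with 10, 7, 14, 6 and 10 genes on chromosomes 1 to 5.

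The study asked how osmotic stress and leaf development act on transcripts of growing leaves. Wild-type Col-0 plants grew in vitro with 25 mM mannitol, a sugar alcohol that makes water harder to take up and so imposes a mild osmotic stress, or with 0 mM mannitol as control. Leaf 3 was taken on day 9, when its cells proliferate and its area was about 0.1 mm2, on day 15, when it expands (7 mm2), and on day 22, when it is mature (40 mm2). The other tissue was seedling shoots, the vegetative part at growth stage 1.03, for which no day is given. Each of the 8 groups, mannitol and control at each of the 4 stages, had 3 Affymetrix ATH1 arrays, 24 in all. The replicates are independent experiments, each sample pooling many plants. One label field names mannitol for control samples too, so the groups rest on the title and the stress field.

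As background, every ribosome carries 1 copy of most of these proteins, and in plants each protein is encoded by a small family of near-identical genes. Dividing cells must build new ribosomes before each division, and ribosomal protein transcripts are among the most abundant messages of young, proliferating leaf primordia. Growth signalling through the TOR kinase reaches the ribosome through S6 kinases, which phosphorylate ribosomal protein S6. Loss of single ribosomal protein genes in Arabidopsis often gives narrow, pointed first leaves or stops the embryo.

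All values are log2 expression levels (RMA), so a difference of 1 is a 2-fold change relative to the bulk of loci on the array. Levels of different genes are read by different probes and are not set against each other. Array medians lay between 5.91 and 6.16, and arrays of a group correlated at 0.990 to 0.997 across loci, which are not independent replicates. No pair of arrays was identical. The spread of a ribosomal protein gene between replicates was near that of the median locus: the pooled within-group SD ran from 0.0649 to 0.244 with a median of 0.132, against 0.143 for the median locus. Gene symbols are those of RefSeq (TAIR10.1), which gives 21 of the 47 a symbol of their own. The rest are named by locus alone.

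The level of nearly every ribosomal protein gene differed between leaf stages. For each array, the deviation of every gene from its own mean over the 24 arrays was taken, and the median over the 47 genes described the array. In proliferating leaf this median lay between 1.15 and 1.16 on the 3 mannitol arrays and between 1.12 and 1.14 on the 3 control arrays. Expanding leaf gave -0.101 to -0.012 with mannitol and -0.121 to -0.011 in control. Mature leaf gave -0.962 to -0.731 with mannitol and -0.854 to -0.615 in control. The 3 leaf stages did not overlap, while mannitol and control arrays did within expanding and within mature leaf. By replicate number, mature leaf had -0.731, -0.962 and -0.869 with mannitol and -0.615, -0.854 and -0.734 in control, lower with mannitol in each pair. The pairs of expanding leaf went both ways. This pairing was not tested. In proliferating leaf the 3 mannitol arrays lay just above the 3 control arrays. Seedling shoots lay between expanding and mature leaf, at -0.397 to -0.256 with mannitol and -0.458 to -0.044 in control, and their control arrays overlapped those of expanding leaf. Over all loci the same median stayed within -0.07 and 0.042 on every array.

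**Figure D1:**
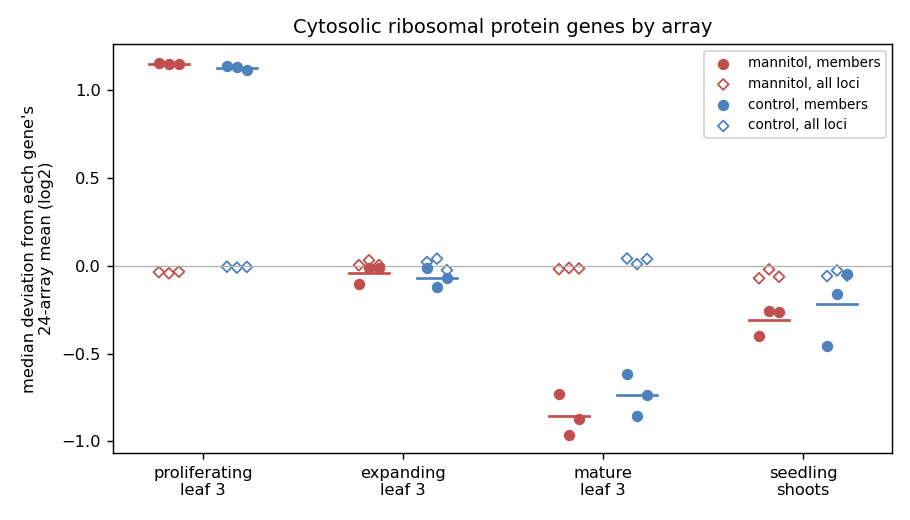
Each point is 1 array: filled points give the median deviation of the 47 ribosomal protein genes from their 24-array means (log2, y axis), open diamonds the same over all loci, and lines the mean of 3 arrays, mannitol left of control within each stage. The 6 proliferating-leaf arrays sit near 1.1, the expanding arrays just under 0, the mature arrays below -0.6 and the open diamonds near 0 throughout.

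Gene by gene, 46 of the 47 were higher on all 6 proliferating-leaf arrays than on all 18 other arrays. For 43 genes all expanding-leaf arrays lay above all mature-leaf arrays, for 3 the arrays overlapped, and for 1, AT5G39850, they lay below. Seedling shoots lay above mature leaf without overlap for 35 genes, below it for 1, and overlapped it for 11. Expanding leaf and seedling shoots overlapped for 40 genes and could be ordered for the remaining 7, all higher in expanding leaf. The highest group mean was a proliferating one and the lowest a mature one for 46 genes. These orderings over pooled arrays were not counted for all loci. Between single control groups, 31.7% of all loci were lower without overlap in expanding than in proliferating leaf. The share was 22.4% for mature against expanding control leaf.

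**Figure D2:**
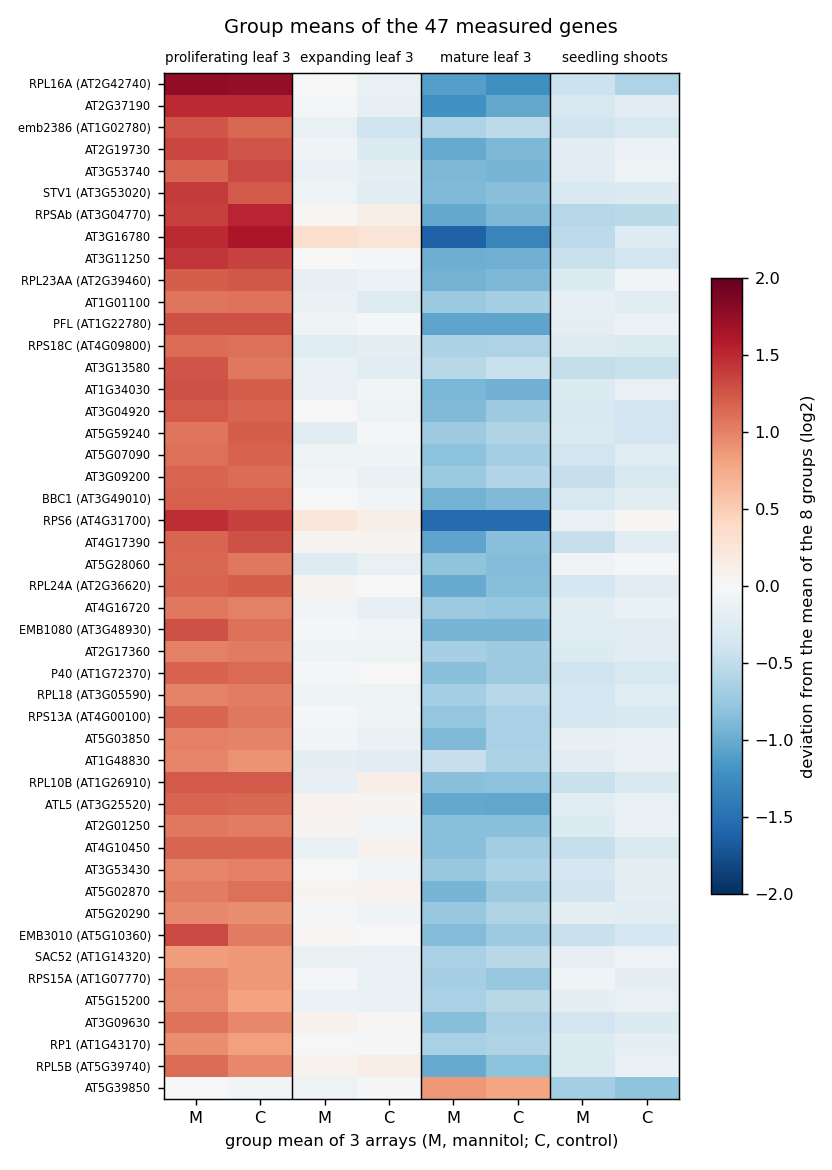
Rows are the 47 genes ordered by their change between proliferating and expanding control leaf, columns are the 8 groups (M, mannitol; C, control), and colour is the group mean of 3 arrays minus the mean of the 8 groups (log2). All rows but the bottom one, AT5G39850, are red in proliferating leaf and blue in mature leaf.

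Between proliferating and expanding control leaf, 46 of the 47 genes fell (limma, Benjamini-Hochberg adjusted over all loci, called at an adjusted p under 0.05, two-sided) and none rose. Of all loci, 31.5% were called lower and 29.1% higher in this comparison. The median difference, expanding minus proliferating, was -1.20 log2 for the ribosomal protein genes and 0.04 for all loci. Of the 47 genes, 40 were called lower by more than 2-fold, against 2604 of all 20777 loci. The arrays of both stages did not overlap for any of the 46 genes that fell, against 31.7% of all loci that were lower without overlap. In bulk tissue, fewer cells of a type and less RNA per cell cannot be told apart.

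Both subunits took part in this fall. All 8 measured genes that RefSeq names as 40S proteins fell, by a median of -1.19 log2, and all 10 named as 60S proteins fell, by a median of -1.12 log2. Among the 40S genes, PFL (AT1G22780), a ribosomal protein S18 gene named for the pointed first leaves of its mutant, had 11.48, 11.41 and 11.28 on the expanding control arrays and 12.78, 12.75 and 12.60 on the proliferating control arrays. It was thus lower on every expanding array, with a difference of -1.32 ± 0.0949 (SE) and an adjusted p of 2.37e-11 by limma. RPS18C (AT4G09800), its family partner, fell by nearly the same amount, -1.29 ± 0.0867, adjusted p 7.41e-12. P40 (AT1G72370) and RPSAb (AT3G04770), the pair of genes for protein Sa of the small subunit, fell by 1.14 and 1.42 on the log2 scale. RPS6 (AT4G31700) and EMB3010 (AT5G10360), the S6 pair that S6 kinases phosphorylate, fell by 1.24 and 1.03.

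Among the 60S genes, RPL16A (AT2G42740) changed most. Its levels were 8.89, 8.74 and 8.93 in expanding control leaf and 10.91, 10.68 and 10.68 in proliferating control leaf, a difference of -1.90 ± 0.171 (adjusted p 1.13e-09 by limma). STV1 (AT3G53020), an L24 gene whose mutant has short fruit valves, fell by 1.44, and RPL23AA (AT2G39460), whose protein sits at the exit of the peptide tunnel, fell by 1.35. The 60S genes with the smallest falls were RPL5B (AT5G39740), a partner of 5S rRNA, at -0.83 ± 0.104, and RP1 (AT1G43170), an L3 gene at the peptidyl transferase centre, at -0.87 ± 0.0868. Even these were lower on all 3 expanding arrays than on all 3 proliferating arrays.

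Genes with no ribosomal subunit in RefSeq behaved in the same range. The differences were -1.67 log2 for AT2G37190, -1.56 for emb2386 (AT1G02780), a gene needed by the embryo, -1.54 for AT2G19730, -1.496 for AT3G53740 and -1.26 for AT3G09200. The adjusted p of emb2386, 1.46e-12 by limma, was the smallest of the 47. At the other end, AT3G09630 fell by 0.93 and AT5G15200 by 0.94. A single gene, AT5G39850, was not called: it had 7.18, 7.06 and 7.34 in expanding control leaf and 7.37, 7.13 and 7.00 in proliferating control leaf, overlapping values with a difference of 0.03 ± 0.155 (adjusted p 0.882 by limma).

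The next step, from expanding to mature control leaf, was smaller and less even. Of the 47 genes, 44 fell, 1 rose and 2 were not called, while 21.6% of all loci were called lower and 18.8% higher. The median difference, mature minus expanding, was -0.68 log2, against 0.01 over all loci. Of the 47 genes, 6 were called lower by more than 2-fold, against 905 of all 20777 loci. The 8 annotated 40S genes all fell (median -0.73) and so did the 10 annotated 60S genes (median -0.83). Mature arrays lay below expanding arrays without overlap for 44 genes and above them for 1, against 22.4% and 20.8% of all loci.

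RPS6 fell most at this step. It had 9.88, 9.16 and 9.58 in mature control leaf and 11.41, 11.05 and 11.15 in expanding control leaf, a difference of -1.67 ± 0.138 (adjusted p 1.43e-09 by limma). AT3G16780 came next, with 9.004, 8.01 and 8.60 in mature and 10.22, 10.01 and 10.09 in expanding control leaf, a difference of -1.57 ± 0.179, and its mature values spread over about a whole log2 unit. RPL16A and ATL5 (AT3G25520), an L5 gene, each fell by 1.09, RPSAb by 1.02 and PFL by 1.01. RPL5B fell by 0.96 and RPL10B (AT1G26910), an L10 gene, by 0.94. AT1G34030 fell by 0.90 and EMB1080 (AT3G48930), another gene needed by the embryo, by 0.87.

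At the shallow end, emb2386 had 11.88, 11.715 and 11.66 in mature and 12.004, 11.67 and 11.93 in expanding control leaf. These values overlapped, and its difference of -0.11 ± 0.0957 was not called (adjusted p 0.382 by limma), although it had one of the deepest falls at the earlier step. AT3G13580 likewise was not called at -0.22 ± 0.103 (adjusted p 0.0934), but was called at -0.31 (adjusted p 0.0279) without replicate 1 of mature control leaf. AT1G01100 and AT1G48830 fell by 0.40 and 0.41 on the log2 scale. AT5G39850 rose, with 7.81, 8.03 and 8.20 in mature and 7.18, 7.06 and 7.34 in expanding control leaf, a difference of 0.82 ± 0.155 (adjusted p 0.000152 by limma).

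Added over both steps, the median difference, mature minus proliferating leaf, was -1.95 log2, or 3.87-fold lower, with mannitol and -1.86 log2, or 3.62-fold lower, in control. In both media 43 genes had a lower change at the first step than at the second. This count includes AT5G39850, which had a net rise. Among the 46 genes with a net fall, the first step held a median of 60.1% of the whole fall with mannitol and 63.3% in control. The deepest total falls were AT3G16780 with mannitol, at -3.11 log2, and RPL16A in control, at -2.99 log2. In control leaf RPS6 fell 7.52-fold and PFL 5.02-fold over both steps, while RP1 and SAC52 (AT1G14320), an L10 gene, fell 2.68-fold. The smallest net fall in control leaf was that of AT5G15200, 2.59-fold.

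**Figure D3:**
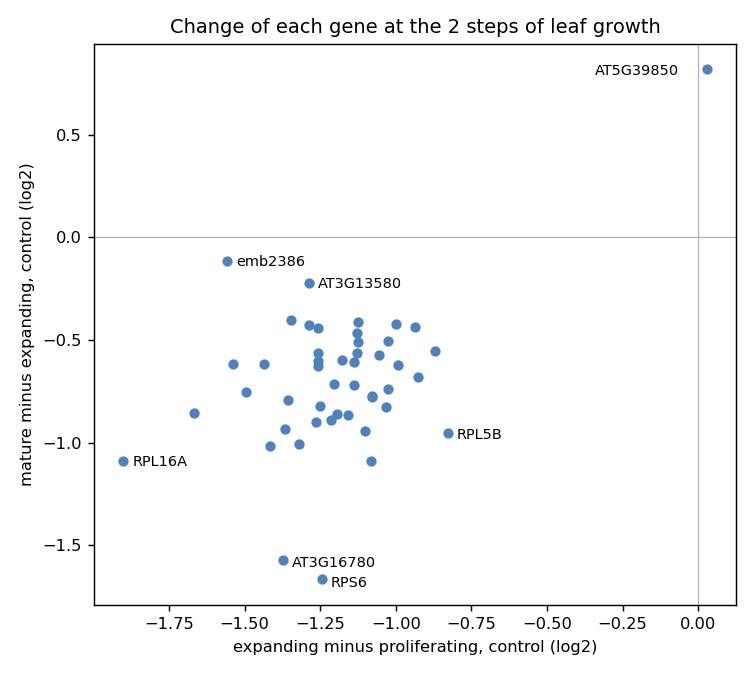
Each point is 1 of the 47 genes in control leaf: the x axis is expanding minus proliferating, the y axis mature minus expanding (both log2, means of 3 arrays). Most genes lie between -1.5 and -0.8 on the x axis and between -1.1 and -0.4 on the y axis, and AT5G39850 stands alone at 0.03 and 0.82.

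On mannitol medium 46 genes fell and none rose between proliferating and expanding leaf, where 31.8% of all loci were called lower and 33.2% higher, with a median of -1.20 log2. Between expanding and mature leaf 46 fell and 1 rose, where 21.5% of all loci were called lower and 18.6% higher, with a median of -0.77 log2. The riser was again AT5G39850, at 0.97 ± 0.155. AT3G16780 had the deepest fall of this step, -1.94 ± 0.179, and RPS6 followed at -1.77 ± 0.138. AT3G13580 (-0.41) and emb2386 (-0.47), not called in control, were both called lower here, and the test of the difference between the media follows with the mannitol effects.

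Genes of a family did not always move together. These comparisons are descriptions with no test, and only differences in change are read, since the offset between a pair depends on the probes. Whether probes of a family also bind the other member was not tested. In expanding leaf RPS6 minus EMB3010 was 0.035 ± 0.0825 (SD, n = 3) with mannitol and -0.072 ± 0.14 in control. In mature leaf the difference was -0.851 ± 0.0842 with mannitol and -0.999 ± 0.29 in control, so RPS6 lost 0.887 and 0.927 log2 more than its partner at this step, and the arrays did not overlap in either medium.

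The S18 pair showed the same shape. PFL minus RPS18C was 0.154 ± 0.17 with mannitol and 0.138 ± 0.0159 in control expanding leaf, and -0.426 ± 0.0785 with mannitol and -0.439 ± 0.0545 in control mature leaf. Only 6 pairs were compared, in each of which both genes have a RefSeq symbol. Families of other measured genes were not compared, so the rankings of pairs do not cover them. Between proliferating and expanding control leaf the S18 pair moved apart least of the 6 pairs, by -0.033 ± 0.0824 (SE), and the Sa pair most, by 0.278 ± 0.112. At the step to mature control leaf the L5 pair, ATL5 and RPL5B, moved apart least, by -0.137 ± 0.0652. For L10, RPL10B fell more than SAC52 at the step to mature control leaf, a gap of 0.518 ± 0.127. At the first control step the gap was 0.101 ± 0.148. With mannitol it was 0.417 ± 0.0782 at the first step and 0.153 ± 0.0802 at the next. Whether the media differed in these gaps was not tested. The L24 pair moved apart and returned: STV1 minus RPL24A moved by -0.24 ± 0.0779 at the first control step and by 0.243 ± 0.0709 at the next.

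**Figure D4:**
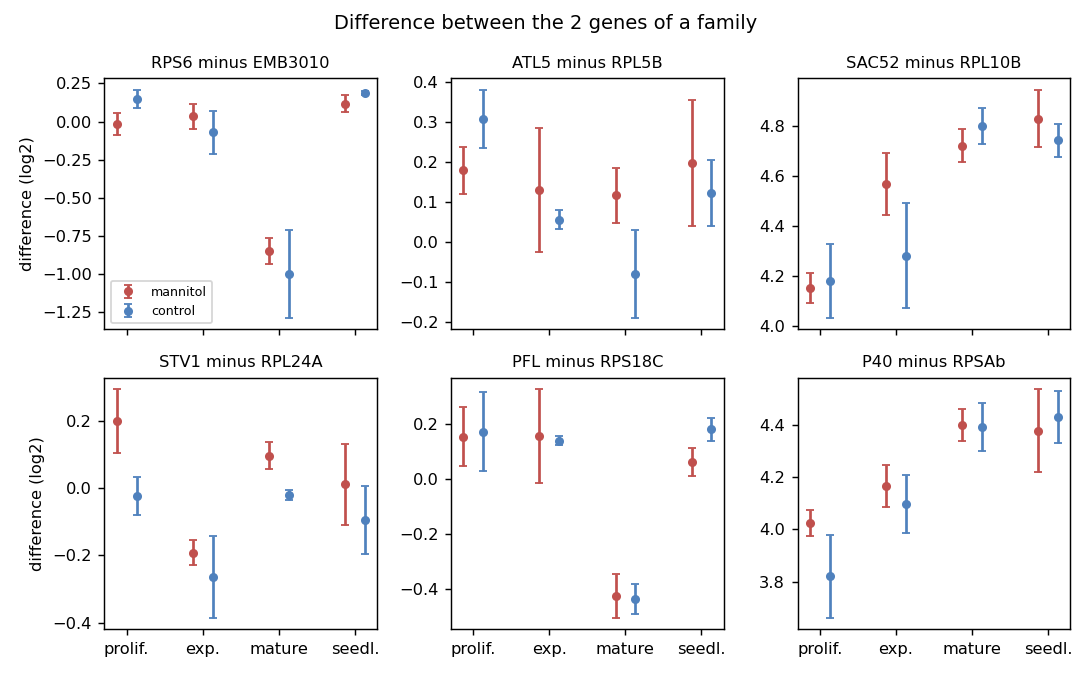
Each panel gives the difference between the 2 genes of a family (log2, mean ± SD of 3 arrays) at the 4 stages, mannitol in red left of control in blue. RPS6 and PFL drop against their partners in mature leaf, to between -1.0 and -0.4, and the height of a panel's zero has no meaning across genes.

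Other parts of the ribosome programme were set beside these genes. Of 94 further loci taken as cytosolic ribosomal protein genes from background knowledge, 78 were measured. Of these, 77 fell and 1, AT2G47570, rose (0.30, adjusted p 0.0444 by limma) between proliferating and expanding control leaf, with a median of -1.26, and 77 fell to mature leaf (median -0.75). The call of AT2G47570 was lost without replicate 1 or 3 of proliferating control leaf and without replicate 1 or 2 of expanding control leaf. RefSeq names 7 of them as such, and all 7 fell at each step, among them RPL34 (AT1G69620) with a difference of -1.61 at the first. RACK1B_AT (AT1G48630) and RACK1C_AT (AT3G18130), genes of a scaffold protein on the small subunit, fell by 1.71 and 1.83 at the step to mature leaf.

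Ribosome assembly factors, which process rRNA and build subunits in the nucleolus, fell at the first step and then in part. Of 39 measured of 40 listed, 35 fell and 1 rose between proliferating and expanding control leaf (median -1.49). The difference was -1.96 for NOP10 (AT2G20490) and -2.41 for NAP57 (AT3G57150), both parts of the particle that turns uridine of rRNA into pseudouridine, and -1.49 for NUC-L1 (AT1G48920), a nucleolin. The riser was AT1G08410 (0.55, adjusted p 0.0311), whose call was lost without replicate 1 of proliferating control leaf and without replicate 2 or 3 of expanding control leaf. To mature leaf 20 fell and 2 rose (median -0.40): FIB2 (AT4G25630), a fibrillarin that methylates rRNA, fell by 1.42 and SWA1 (AT2G47990) by 1.02. The risers were AT1G67120, which RefSeq lists with the synonym MIDASIN 1, by 0.85, and AT2G27200 by 0.30 (adjusted p 0.0323), a call lost without replicate 2 or 3 of mature or of expanding control leaf.

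Plastid ribosomal proteins, which serve chloroplast translation, took the opposite direction at the first step. Of 27 measured of 29 listed, 22 rose and none fell between proliferating and expanding control leaf (median 0.38), and at an unadjusted p under 0.05, which 63.7% of all loci passed, the counts were the same. EMB3136 (AT5G13510) rose by 0.88 and RPS9 (AT1G74970) by 0.67. To mature leaf all 27 fell (median -0.76), with RPL9 (AT3G44890) lower by -1.31 and RPL15 (AT3G25920) by -1.18.

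Markers of cell state moved with the same steps. All 6 proliferation markers fell between proliferating and expanding control leaf, CYCB1;1 (AT4G37490), a mitotic cyclin, by 4.09 and PCNA1 (AT1G07370), the replication clamp, by 3.56, and 4 of the 6 fell again to mature leaf. The others, CYCB1;1 and AN3 (AT5G28640), were already low in expanding control leaf, at 4.49 and 4.68. The summed log2 levels of all 6 markers ran from 58.4 to 59.4 with mannitol and from 59.1 to 59.5 in control proliferating leaf. In expanding leaf they ran from 36.7 to 37.4 with mannitol and from 35.3 to 35.9 in control, and in mature leaf from 29.2 to 29.8 with mannitol and from 28.1 to 29.6 in control. The photosynthetic markers PSAD-1 (AT4G02770) and RCA (AT2G39730), 2 measured of 6 listed, rose by 1.31 and 1.41 at the first step, and neither was called at the next. Of 3 ageing markers, NAP (AT1G69490) rose by 1.71 and then by 3.82, SEN1 (AT4G35770) rose by 4.47 to mature leaf, and the group means of SAG12 (AT5G45890) stayed between 3.28 and 3.45. The part of any of these in the fall of the ribosomal protein genes was not tested.

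Markers of root and shoot meristem were also read. The 5 root markers summed to between 20.8 and 23.5 log2 units on all arrays, and 3 of them rose at the first control step. NRT2:1 (AT1G08090) rose by 0.51 (adjusted p 0.00172 by limma) and kept its call in all 12 settings tried. EXPA7 (AT1G12560, 0.31, adjusted p 0.0473) and RHD6 (AT1G66470, 0.29, adjusted p 0.0478) each lost theirs in 7 of the 12, with adjusted p up to 0.19 and 0.33. The 4 meristem markers summed to between 14.9 and 17.9, and KNAT1 (AT4G08150) fell by 0.71 at that step. Its group means were low, 3.34 in expanding and 4.04 in proliferating control leaf, where the lower quartile of locus means was 4.1. Its proliferating control arrays spread from 3.57 to 4.63.

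Mannitol left no ribosomal protein gene called at any stage, in a fit that did not pair same-numbered arrays within a stage. In seedling shoots 0 of the 47 were called by limma, where 1.17% of all loci were called higher and 0.274% lower. In proliferating leaf it was 0 of 47, where 1.57% were called higher and 0.241% lower. In expanding leaf it was 0 of 47, where 4.02% were called higher and 3.62% lower, and in mature leaf 0 of 47, where 2.99% were called higher and 1.84% lower. At an unadjusted p under 0.05 the counts were 2 in seedling shoots, 2 in proliferating, 2 in expanding and 1 in mature leaf, where 8.43%, 9.87%, 18.8% and 19.3% of all loci passed in the same order.

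Mannitol minus control had a median of -0.08 log2 in seedling shoots (8 genes above 0 and 39 below), 0.03 in proliferating leaf (30 above, 17 below), 0.03 in expanding leaf (31 above, 16 below) and -0.10 in mature leaf (12 above, 35 below). The same medians over all loci were -0.01, -0.03, -0.02 and -0.04 in that order. Of all 20777 loci, 11389, 12070, 11171 and 12193 were below 0 in the same order. Genes read on the same arrays are not independent, so these signs are not separate observations. The sign of the ribosomal protein median turned in some settings: in proliferating leaf it was -0.0089 with each array centred and -5e-04 after quantile normalization, and in seedling shoots 0.0111 without replicate 3 of the control. The median standard error of a gene's difference was 0.109. The 95% interval of the difference lay within 0.5 log2 of 0, or 1.41-fold, for 45, 46, 45 and 46 genes at the 4 stages in the same order, and the widest limits reached were -0.675 and 0.533. A gene that missed the threshold is not thereby shown to be equal in both media.

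**Figure D5:**
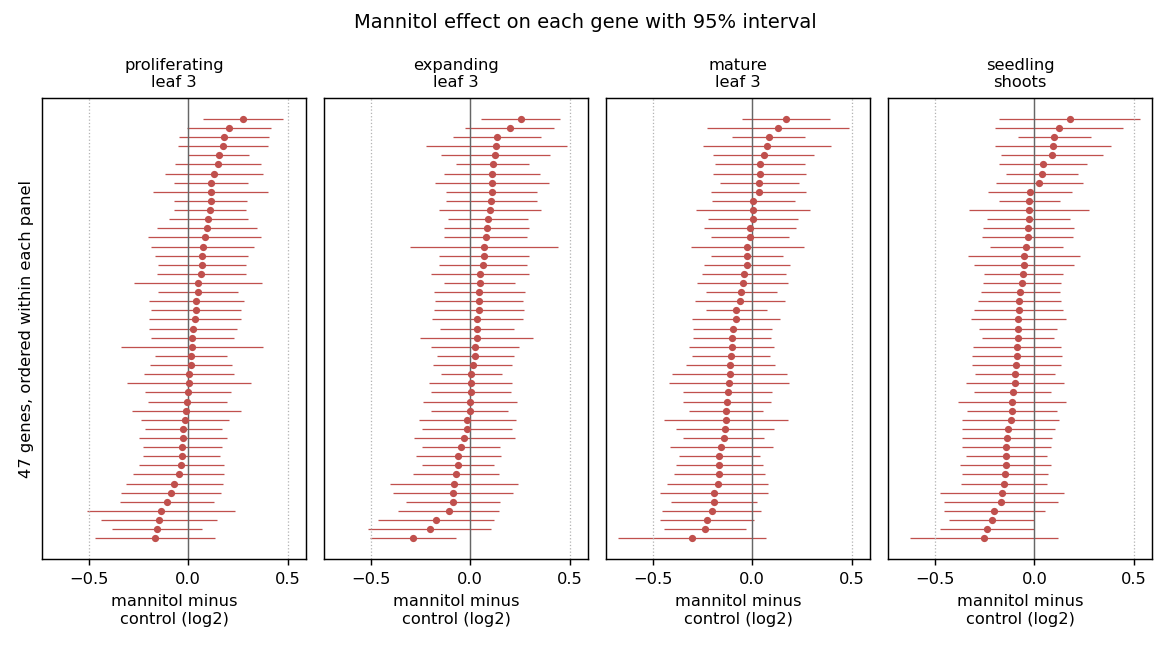
Points give mannitol minus control (log2) for each of the 47 genes, ordered within each panel, and lines their 95% intervals, with dotted lines at 0.5 either side of 0. Nearly all intervals lie inside the dotted lines at each of the 4 stages, most points are left of 0 in mature leaf and seedling shoots, and most are right of 0 in proliferating and expanding leaf.

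The genes nearest to a call were these. In proliferating leaf EMB3010, the S6 gene, had 12.61, 12.56 and 12.57 with mannitol and 12.28, 12.40 and 12.23 in control, higher without overlap by 0.28 ± 0.0974 (adjusted p 0.229 by limma). AT5G15200 (0.15, adjusted p 0.499) and AT3G13580 (0.21, adjusted p 0.53) followed. In expanding leaf RPL10B had 8.02, 8.00 and 7.96 with mannitol and 8.18, 8.15 and 8.52 in control, lower without overlap by -0.29 ± 0.104 (adjusted p 0.104). In the same leaf emb2386 (AT1G02780) had 12.05, 12.23 and 12.08 with mannitol and 12.004, 11.67 and 11.93 in control, higher without overlap by 0.25 ± 0.0957 (adjusted p 0.123). AT2G19730 differed by 0.20 (adjusted p 0.341).

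In mature leaf AT5G03850 had 10.54, 10.41 and 10.48 with mannitol and 10.87, 10.57 and 10.72 in control, lower without overlap by -0.24 ± 0.0998 (adjusted p 0.183 by limma). AT4G17390 (-0.23, adjusted p 0.282) and RPL5B (-0.19, adjusted p 0.323) came next. AT3G16780, at -0.30 (adjusted p 0.372), was called lower at -0.57 (adjusted p 0.0322) only without replicate 2 of mature control leaf. In seedling shoots RPL23AA (-0.21, adjusted p 0.58), AT4G17390 (-0.24, adjusted p 0.583) and AT5G02870 (-0.20, adjusted p 0.782) had the smallest p-values. The gene that ran against development, AT5G39850, differed by 0.13 in seedling shoots, 0.05 in proliferating, -0.08 in expanding and 0.07 in mature leaf, none called.

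Arrays of mannitol and control did not overlap for 11 genes that were higher and 1 that was lower in proliferating leaf, where 7.11% of all loci were higher and 9.94% lower without overlap. The counts were 3 higher and 1 lower in expanding leaf (9.3% and 10.7% of all loci), 0 higher and 2 lower in mature leaf (10.4% and 14.2%), and 0 in both directions in seedling shoots (7.23% and 9.05%). With each array centred on its median, an alternative chosen after seeing the data, proliferating leaf had 9 higher and 4 lower (5.05% and 15.2% of all loci) and mature leaf 0 higher and 7 lower (7.14% and 21.5%). With quantile normalization, also chosen later, proliferating leaf had 6 higher and 1 lower (7.04% and 8.92% of all loci) and mature leaf 0 higher and 3 lower (10.9% and 12.2%).

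The tests of whether the mannitol effect itself differed between leaf stages called none of the 47 genes. Expanding against proliferating leaf gave 0 at a background of 0.645% called higher and 0.655% lower, with 0 at an unadjusted p under 0.05 (11.5% of all loci). Mature against expanding leaf gave 0 at a background of 1.66% and 1.76%, with 3 at an unadjusted p under 0.05 (16.4% of all loci). Mature against proliferating leaf gave 0 at a background of 1.26% and 1.38%, with 4 at an unadjusted p under 0.05 (13.2% of all loci). The nearest were emb2386 (mature minus expanding effect -0.35 ± 0.135, adjusted p 0.175 by limma) and EMB3010 (mature minus proliferating effect -0.42 ± 0.138, adjusted p 0.122). A joint F test over the 3 leaf stages called 0 of 47, where it called 4.71% of all loci, and its lowest adjusted p was 0.172, for EMB3010.

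Genes around the ribosome programme gave a few calls with mannitol. In expanding leaf 5 of 11 measured genes of TOR and SnRK1 signalling, of 12 listed, were called, where 7.65% of all loci were. Of these 5 calls, only that of AT5G13240 held in all settings tried. AT5G13240 fell by 0.85 (adjusted p 0.00014 by limma), PK1 (AT3G08730), an S6 kinase gene, by 0.46 (adjusted p 0.00366) and KIN11 (AT3G29160), a SnRK1 kinase, by 0.39 (adjusted p 0.0483). TAP46 (AT5G53000), a phosphatase regulator that TOR phosphorylates, rose by 0.40 (adjusted p 0.00521) and S6K2 (AT3G08720), the other S6 kinase gene, by 0.52 (adjusted p 0.0378). In the same leaf 2 of 6 proliferation markers rose, CDKB2;1 (AT1G76540) by 0.55 (adjusted p 0.00429) and SYP111 (AT1G08560), the cell plate syntaxin KNOLLE, by 0.48 (adjusted p 0.0478).

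In mature leaf GBF6 (AT4G34590), the transcription factor bZIP11 that sucrose represses at translation, rose by 0.70 (adjusted p 0.00407 by limma) with mannitol and PCNA1 by 0.42 (adjusted p 0.0425). AT1G67120, the assembly factor, fell by 0.73 (adjusted p 0.0149), the 1 of 39 assembly factors called, and 37 of the 39 differed below 0 (median -0.24). Over all loci, 12193 of 20777 differed below 0 (median -0.04). RPL3B (AT1G61580), an L3 gene outside the 47, fell by 0.65 (adjusted p 0.0296), the 1 of the 78 further ribosomal protein genes called. SEN1 fell by 1.09 (adjusted p 0.0172). None of the 27 plastid ribosomal protein genes was called with mannitol at any stage, with 5, 0, 1 and 3 at an unadjusted p under 0.05 in seedling shoots, proliferating, expanding and mature leaf, where 8.43%, 9.87%, 18.8% and 19.3% of all loci passed. The calls for KIN11, S6K2 and SYP111 in expanding leaf, and for AT1G67120, RPL3B, PCNA1 and SEN1 in mature leaf, were each lost without 1 or more single arrays, and those of PK1 and TAP46 when expanding leaf was fitted alone. Those of AT5G13240, CDKB2;1 and GBF6 held in all settings tried. Of 12 settings in expanding leaf, KIN11 lost its call in 8, and S6K2 and SYP111 in 6 each. Of 12 in mature leaf, PCNA1 lost it in 9, RPL3B in 5, and AT1G67120 and SEN1 in 2 each.

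In control leaf the share of signalling genes called was near that of all loci at both steps, 63.6% against 60.6% and then 45.5% against 40.4%. Of the 11, 2 rose and 5 fell between proliferating and expanding leaf, with GBF6 lower by -2.39, S6K2 by -1.29 and TAP46 by -0.90, and with AT5G13240 higher by 1.25 and PK1 by 0.69. To mature leaf 4 rose, among them RAPTOR1 (AT3G08850), the partner of TOR, by 0.51, and 1 fell, GBF6 again, with a difference of -1.74. S6K2 and PK1, which act on the product of RPS6 and EMB3010, changed in opposite directions at the first step, while both S6 genes fell.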

How the data were processed

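Total RNA was hybridised to 24 ATH1 arrays, and the deposited table holds log2 expression levels made by the authors with RMA, per the submitters' processing notes. Not given in the sources used here: the RMA version, how probes were assigned to a locus, and whether all arrays were normalized together; the log2 scale was read from the values (2.52 to 14.4). No sample column was left unmapped.

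The deposited values were fitted as they stand with limma 3.58.1 in R 4.3.3, with 8 group means over all 20777 loci, contrasts, eBayes (prior SD 0.137 with 6.02 degrees of freedom) and two-sided moderated tests. P-values were adjusted by Benjamini-Hochberg over all loci within each contrast and called under 0.05. The number of arrays limits the precision. The fit was tested on simulated data with known changes. Ribosomal protein genes and the lists of other genes were chosen with earlier results of these data known. Named genes are, per comparison, up to 8 called genes per direction with the smallest p (3 where none was called), the 5 largest and smallest changes in control leaf, and up to 3 called genes with the smallest p of each list. Lists cover assembly factors, TOR and SnRK1 signalling, plastid ribosomal proteins, further cytosolic ribosomal protein genes, and markers of proliferation, photosynthesis, root, shoot meristem and ageing. Others were named after their values were seen.

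The replicate numbers denote independent experiments per the series' design text. Deviations of same-numbered mannitol and control arrays from their group means correlated at 0.059 to 0.429, over 0.1 in 11 of 12 pairs; all 3 pairs passed in seedling shoots, proliferating and expanding leaf, and replicate 3 of mature leaf did not. Alternatives were median centring, quantile normalization, a replicate block, dim loci left out, an intensity trend, fits of the compared stages alone, and each array left out. The replicate block gave a replicate number the same term at all stages, so pairing within a stage was not fitted. Promoter and protein sequences were not used here.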

Additional observations from a re-analysis of the deposited data

Results flagged for a closer look

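None of the 47 ribosomal protein genes had a mannitol effect that differed between leaf stages by the limma test of the difference. Among the other genes named, 6 passed that test (adjusted p under 0.05 over all loci, two-sided). TAP46, a TOR phosphatase regulator, had a higher mannitol effect in expanding than in proliferating leaf, by 0.53 log2 (adjusted p 0.0386). From expanding to mature leaf the effect rose for AT5G13240 by 0.81 (adjusted p 0.0148) and for GBF6 (bZIP11) by 0.82 (adjusted p 0.0215). The same difference was -1.08 for NAP, an ageing-leaf transcription factor (adjusted p 0.0292), and -1.40 for SEN1 (adjusted p 0.0368). From proliferating to mature leaf it rose for GBF6 by 1.06 (adjusted p 0.00334) and differed by -1.08 for AT1G67120, a ribosome assembly factor (adjusted p 0.0152). GBF6 in the last comparison kept its call in all settings tried, while each of the other calls was lost in 1 or more.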

How the results depend on the processing

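Counts of called ribosomal protein genes stayed within 1.5 times their value under every alternative run, except that 0 to 1 genes were called lower with mannitol in mature leaf over the single arrays left out (AT3G16780, without replicate 2 of mature control leaf). The replicate block changed no count: 46 genes fell between proliferating and expanding leaf in both media, 44 fell and 1 rose to mature leaf in control, 46 fell and 1 rose with mannitol, and 0 were called for mannitol. Centring each array moved the median of the genes for expanding minus proliferating to -1.07 with mannitol and -1.09 in control, while the median of all loci moved to 0.21 and 0.15; quantile normalization gave -1.29 and -1.32. For mannitol in proliferating leaf it was -0.0089 after centring and -5e-04 after quantile normalization, turning its sign. The difference of mannitol effects, expanding minus proliferating leaf, had a median of 0.0463 after quantile normalization.

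Leaving out single arrays gave medians of -1.23 to -1.18 (mannitol) and -1.25 to -1.16 (control) for expanding minus proliferating, and -0.74 to -0.58 for mature minus expanding control leaf. It gave -0.1936 to 0.0111 for mannitol in seedling shoots (above 0 without replicate 3 of the control), 0.0103 to 0.0427 in proliferating and -0.1487 to -0.0276 in mature leaf. The effect differences ran from -0.0341 to 0.0418 (expanding minus proliferating) and -0.1956 to -0.0578 (mature minus proliferating). AT5G39850, not called between proliferating and expanding control leaf, ran from -0.0503 (without replicate 3 of proliferating control leaf) to 0.1305, and was -0.0412 without replicate 3 of expanding control leaf. Over all loci, the calls behind the background shares moved by more than 1.5 times when stages were fitted alone: mannitol gave 221 in proliferating, 832 in expanding and 481 in mature leaf, against 377, 1589 and 1003, and the effect differences gave 145 (expanding minus proliferating) and 434 (mature minus expanding), against 270 and 709. With single arrays left out, mannitol gave 185 to 287 in seedling shoots (301 with all arrays), 238 to 457 in proliferating and 476 to 1564 in mature leaf, and the effect differences 175 to 301, 436 to 1070 and, for mature minus proliferating (548 with all arrays), 337 to 750. The cause of these moves was not tested. Of the single genes under alternatives, 2102 comparisons kept direction and call, 126, all of genes outside the 47, lost the call, 1 gained it and 2 turned. Promoter motif counts were not run. RMA levels near background limit AT5G59240, whose 24-array mean was 4.45. The same limit holds for the markers KNAT1, EXPA7, RHD6 and SAG12, whose group means were at most 4.40 (EXPA7 in mature leaf with mannitol). It also holds for SHV2, CLV3 and WUS in the marker sums, with group means of at most 4.58 (SHV2 in mature control leaf). Low levels further limit CYCB1;1 (4.49), AN3 (4.68) and SEN1 (4.31) in expanding control leaf.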
